A study of Rattus norvegicus with 60 samples.

Results

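Livers of male F344/N rats that received N,N-dimethyl-p-toluidine (DMPT) at 20 mg/kg per day were compared directly with livers of rats that received 6 mg/kg per day, on 5 arrays for each dose. These 10 arrays, chosen by the dose and replicate number in their titles, are part of a set of 60. The other arrays, 5 per group, cover vehicle and DMPT at 1, 60 and 120 mg/kg, and vehicle and p-toluidine at 1, 6, 20, 60 and 120 mg/kg. All rats were 5 to 6 weeks old when dosing began, were housed 2 per cage, and were gavaged daily for 5 days with corn oil at 2.5 ml/kg, which the vehicle groups received without chemical. RNA came from frozen pieces of the left lateral liver lobe and was hybridized to Affymetrix 3′ arrays, which report 1 log2 level per probe set, a group of short probes for a transcript. Replicates are numbered in the titles, and no label links an array to a rat or a cage, so the spread behind each p-value may be partly technical.

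DMPT is an aromatic amine used to start the hardening of acrylic resins and bone cements, and p-toluidine differs from it only in lacking methyl groups on its nitrogen. The liver oxidizes such amines and conjugates reactive products, partly with glutathione. The glutathione S-transferases catalyse that conjugation, and many of their genes are activated by NRF2, a transcription factor that binds antioxidant response elements when cells meet electrophiles. Gstp1, the pi-class transferase, is nearly silent in adult rat hepatocytes and is the classical marker of preneoplastic rat liver cells.

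Promoters of Gstp1 and Galnt11 are printed, since these are the 2 genes with a symbol whose representative probe set rose. They run from 250 bases before to 50 bases after the RefSeq start of the gene, on the strand of the gene, in assembly GRCr8. The Gstp1 window lies at chr1:210769656-210769955 on the minus strand, and its capitals mark the match to TGACNNNGC, the core of the antioxidant response element. The Galnt11 window lies at chr4:10604925-10605224 on the minus strand, and its capitals mark matches to GCGTG, the core of the xenobiotic response element, the first of them on the opposite strand and printed as CACGC.
Gstp1: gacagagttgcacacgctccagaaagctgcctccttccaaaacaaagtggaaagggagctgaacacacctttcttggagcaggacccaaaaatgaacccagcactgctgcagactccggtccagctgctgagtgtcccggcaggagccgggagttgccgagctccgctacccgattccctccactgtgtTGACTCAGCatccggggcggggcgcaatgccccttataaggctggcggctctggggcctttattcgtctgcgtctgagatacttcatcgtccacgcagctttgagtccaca
Galnt11: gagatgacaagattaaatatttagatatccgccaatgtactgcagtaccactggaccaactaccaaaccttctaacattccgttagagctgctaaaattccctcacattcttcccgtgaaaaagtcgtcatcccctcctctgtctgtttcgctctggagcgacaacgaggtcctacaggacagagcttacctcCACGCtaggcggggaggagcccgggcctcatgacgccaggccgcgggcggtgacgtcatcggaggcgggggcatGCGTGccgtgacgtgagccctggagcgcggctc

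The Gstp1 match, TGACTCAGC, begins at -61 from the start, and GCGTG also occurred there on the opposite strand at -238 and +31. The Galnt11 window held no TGACNNNGC, and its GCGTG matches begin at -57 and +18. Searched on both strands, TGACNNNGC occurred in 12.1% of 33469 promoter windows of this length, GCGTG in 29.7% and TGATGNAA, the C/EBP-ATF composite core, in 3.98%. TGATGNAA was in neither window. No motif overlapped another. Such matches are letters in a window and were not tested as binding sites.

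This dose step separated few transcripts beyond the spread between arrays. Of 31042 non-control probe sets, 5 (0.0161%) passed an adjusted p of 0.05 in limma, 4 of them higher at 20 mg/kg (0.0129%) and 1 lower (0.00322%). Gstp1 was by far the largest. The other calls were Galnt11, a probe set of Snap23 and a probe set without a gene name on the higher side, and Fgf7 on the lower side. At an unadjusted p under 0.05 there were 3264 probe sets (10.5%), 1552 higher (5%) and 1712 lower (5.52%). With no differences that cut would take about 5% over both directions together. The source of the excess was not tested. A difference of at least 2-fold was seen for 10 probe sets on the higher side (0.0322%) and 9 on the lower side (0.029%). The standard error of the difference had a median of 0.09 on the log2 scale, and the smallest difference called was 0.38 in size.

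**Figure D1:**
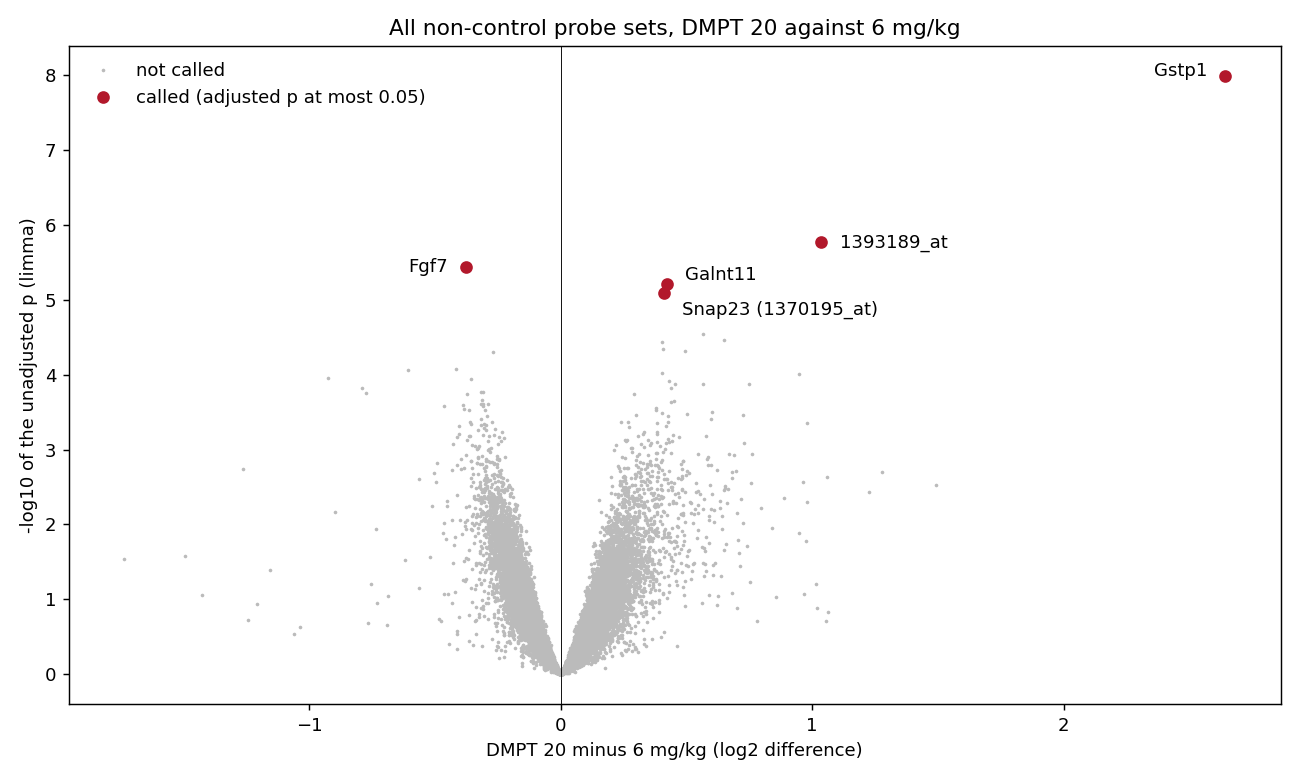
Each point is 1 of 31042 probe sets; the horizontal axis is the log2 difference of DMPT 20 minus 6 mg/kg and the vertical axis is -log10 of the unadjusted limma p. The 5 called probe sets are red, and Gstp1, at 2.64, stands alone at the upper right.

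The calls rest on few arrays. Over 18 alternative settings the count ran between 1 and 6, and none of the 5 calls held in every one. A single call was left without 20 mg/kg replicate 2, 4 or 5 and without 6 mg/kg replicate 1, 2 or 3, and 2 were left without 20 mg/kg replicate 1. The 6 mg/kg replicate 3 is 1 of 5 DMPT arrays whose values had a narrow spread (interquartile range over 3 scaled median absolute deviations below the median array), and leaving out all 5 also left 1 call. Interquartile ranges ran from 3.29 to 3.35 at 20 mg/kg and from 3.12 to 3.30 at 6 mg/kg. The doses did not overlap on the second principal component of the DMPT arrays, an axis holding 12.4% of their variance. It ran from 6.16 to 15.2 at 20 mg/kg and from -23.8 to 3.93 at 6 mg/kg. The part of array spread in the whole dose step was not tested. The RNA quality gauges, differences between 3′ and 5′ control probe sets, did not pass exact permutation tests. For beta-actin they averaged 1.30 ± 0.12 at 20 mg/kg and 1.40 ± 0.13 at 6 mg/kg (SD, n = 5 each; two-sided exact p = 0.230). For Gapdh they averaged -0.08 ± 0.04 at 20 mg/kg and -0.03 ± 0.05 at 6 mg/kg (SD, n = 5 each; two-sided exact p = 0.0873), with p = 0.0397 in the same exact test without 6 mg/kg replicate 5. Their part in the results was not tested.

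Gstp1 (probe set 1388122_at, its only one) measured 9.37, 10.55, 11.01, 10.81 and 9.62 at 20 mg/kg, against 6.09, 8.18, 6.61, 8.41 and 8.86 at 6 mg/kg, in log2 units. Every array at 20 mg/kg was above every array at 6 mg/kg. Within 6 mg/kg the arrays were spread widely: replicates 1 and 3 were near the vehicle arrays, which ran between 5.65 and 6.53, while the other three lay above 8. The means were 10.27 ± 0.73 at 20 mg/kg and 7.63 ± 1.21 at 6 mg/kg (SD, n = 5 each), a log2 difference of 2.64 ± 0.34 (SE; 95% interval 1.94 to 3.34). This is 6.25-fold (3.85 to 10.1), with a limma adjusted p of 0.00032. An exact permutation test of the 10 arrays alone gave p = 0.00794, two-sided and the smallest that 252 arrangements allow. Groups that do not overlap always give this value, as all 5 calls did. It is not adjusted for the choice of Gstp1 among 31042 probe sets, so it is not separate support.

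The Gstp1 call depended on the arrays that set the spread. With only the 10 arrays of 6 and 20 mg/kg in the fit, the limma adjusted p was 0.132. Among the other alternatives for Gstp1 it ran up to 0.0259, and the difference ran between 2.26 and 2.95. The spread within a dose was unequal. The SD of Gstp1 was 0.73 at 20 mg/kg and 1.21 at 6 mg/kg, but 0.16 at both 60 and 120 mg/kg. All groups enter 1 estimate of spread. The SE, interval and fold range given above for Gstp1 use that estimate. They are narrower than the SDs of the compared groups would give. RefSeq also lists Gstp3 and Gstp pseudogenes, and no source used here says whether the probes tell them apart. In whole liver RNA, more cells with a transcript and more transcript per cell cannot be told apart.

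Across the dose series, mean Gstp1 was 6.11 in vehicle, 6.44 at a dose of 1 mg/kg, 7.63 at 6 mg/kg, 10.27 at 20 mg/kg, then 11.60 with 60 mg/kg and 12.02 with 120 mg/kg. The step to 20 mg/kg was the only one of the 5 DMPT steps that passed for Gstp1. The step before it was 1.19 (limma adjusted p = 0.458), and the one after it was 1.32 (limma adjusted p = 0.103). The step to 20 mg/kg exceeded the step to 60 mg/kg by 1.32 for Gstp1, with an unadjusted limma p of 0.0336 and an adjusted p of 0.434, so the difference between the steps did not pass. Both steps use the 20 mg/kg arrays and multiply the dose by about the same factor, 3.33 and 3.

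**Figure D2:**
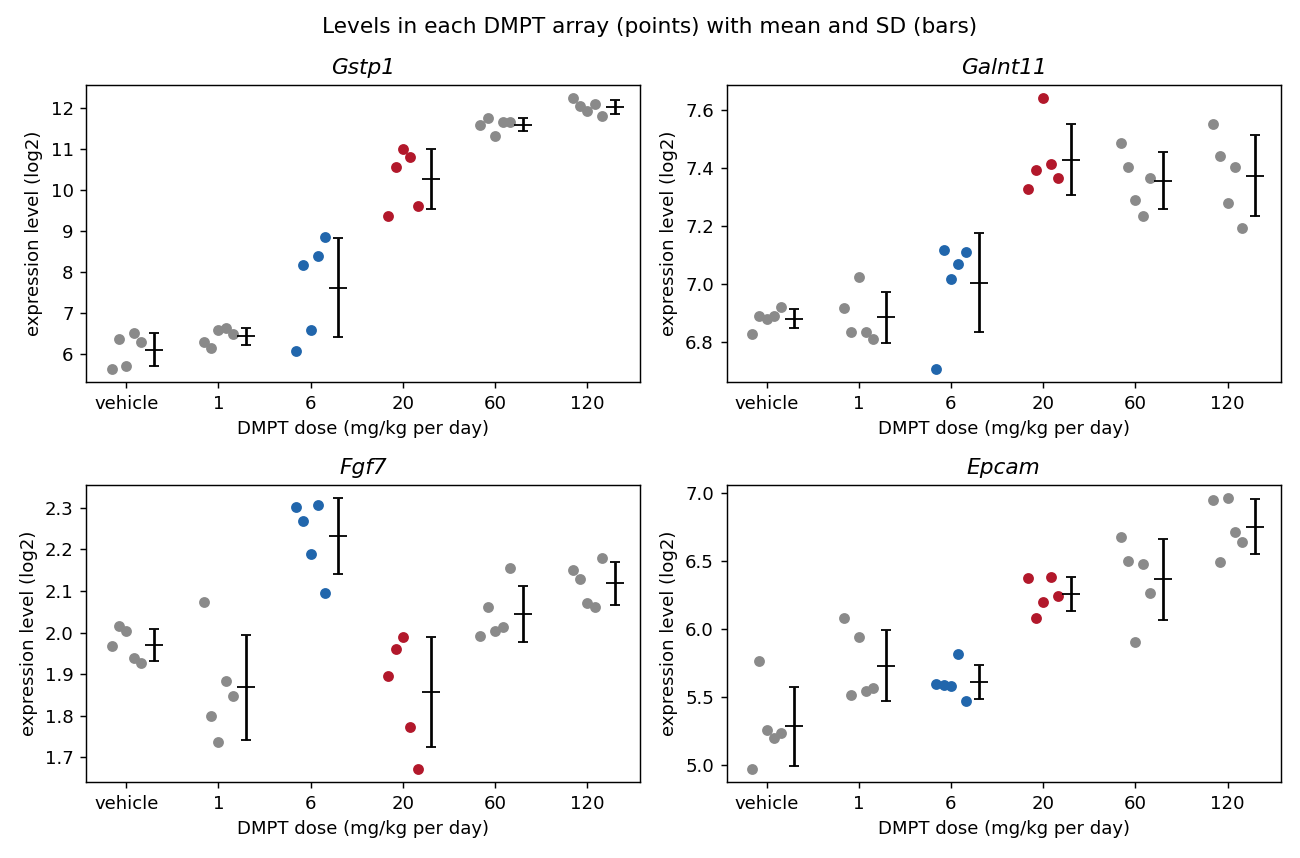
Log2 level in each DMPT array (points) of Gstp1, Galnt11, Fgf7 and Epcam by dose in mg/kg per day, with 20 mg/kg in red and 6 mg/kg in blue; bars give the mean and SD of 5 arrays. Gstp1 climbs over the dose series and is most scattered at 6 mg/kg, and Fgf7 at 6 mg/kg stands above the neighbouring doses.

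Galnt11, an enzyme that starts mucin-type O-glycosylation of proteins, measured 7.33, 7.39, 7.64, 7.41 and 7.36 at 20 mg/kg, against 6.71, 7.11, 7.02, 7.07 and 7.11 at 6 mg/kg. The groups did not overlap. The difference was 0.42 ± 0.08 (SE), 1.34-fold, with a limma adjusted p of 0.0477, which no longer passed in 13 of 18 alternatives. Mean Galnt11 levels were 6.88 in vehicle, 6.88 at 1 mg/kg, 7.00 at 6 mg/kg, 7.43 at 20 mg/kg, then 7.36 with 60 mg/kg and 7.37 with 120 mg/kg. Doses up to 6 mg/kg averaged at most 7.00 and doses from 20 mg/kg at least 7.36 for Galnt11.

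Fgf7, a growth factor that mesenchymal cells make for epithelium, was the only named gene that fell. It measured 1.89, 1.96, 1.99, 1.77 and 1.67 at 20 mg/kg, against 2.30, 2.27, 2.19, 2.31 and 2.09 at 6 mg/kg. These are dim levels, far below the array medians of 3.54 to 3.62. Fgf7 fell by 0.38 ± 0.07 (SE; limma adjusted p = 0.0377), and the call was lost in 13 of 17 alternatives. Mean Fgf7 was 1.97 in vehicle, 1.87 at 1 mg/kg, 2.23 at 6 mg/kg, 1.86 at 20 mg/kg, then 2.05 with 60 mg/kg and 2.12 with 120 mg/kg. The 6 mg/kg arrays were thus the high ones, and neither 20 mg/kg (-0.11, limma adjusted p = 0.456) nor 6 mg/kg (0.26, limma adjusted p = 0.112) differed from vehicle past the threshold for Fgf7.

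The probe set 1393189_at, which has no gene symbol here, measured 3.81, 3.88, 3.62, 3.74 and 4.11 at 20 mg/kg, against 2.49, 2.60, 2.56, 3.16 and 3.17 at 6 mg/kg. Its difference was 1.04 ± 0.18 (SE; limma adjusted p = 0.0264), lost in 8 of 17 alternatives. Snap23 encodes a membrane fusion protein of secretion, and its probe set 1370195_at measured 5.62, 5.66, 5.61, 5.66 and 5.66 at 20 mg/kg, against 5.24, 5.31, 5.10, 5.27 and 5.25 at 6 mg/kg. That probe set rose by 0.41 ± 0.08 (SE) with a limma adjusted p of 0.04996, and the call was lost in 14 of 17 alternatives. The brighter probe set of Snap23, 1370194_at, differed by 0.25 with a limma adjusted p of 0.314. In all 5 calls the groups did not overlap, which was so for 286 probe sets on the higher side (0.921%) and 377 on the lower side (1.21%).

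The 5 genes next in order of p on each side did not pass in limma. On the higher side these were Rcan2, a regulator of calcineurin, at 0.57 ± 0.12 (SE; adjusted p = 0.126), Epcam at 0.65 ± 0.13 (0.127), Erg28, known in yeast as a scaffold of sterol synthesis, at 0.41 ± 0.09 (0.131), Cwf19l2 at 0.49 ± 0.10 (0.131) and Elovl2 at 0.44 ± 0.10 (0.193). Epcam, an adhesion protein of bile duct cells and of hepatic progenitors, measured 6.37, 6.09, 6.20, 6.38 and 6.25 at 20 mg/kg, against 5.60, 5.59, 5.58, 5.81 and 5.47 at 6 mg/kg. Epcam groups did not overlap, yet their spread at other doses was wider, and in the fit of the 10 arrays alone Epcam passed (limma adjusted p = 0.032). So did Rcan2 (0.0381) and Aldh1b1 (0.032) in that fit. A second probe set of Cwf19l2 differed by -0.004.

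On the lower side the next genes were Urah, an enzyme of urate breakdown, at -0.27 ± 0.06 (SE; limma adjusted p = 0.131), Ten1, a telomere protein, at -0.61 ± 0.14 (0.191), Hdc, which makes histamine, at -0.92 ± 0.21 (0.191), Crym, which binds thyroid hormone, at -0.79 ± 0.18 (0.193), and Cox7a1, a subunit of cytochrome c oxidase, at -0.32 ± 0.07 (0.196). Urah had the least spread at 20 mg/kg: it measured 9.46, 9.49, 9.45, 9.47 and 9.52 at 20 mg/kg, against 9.91, 9.67, 9.74, 9.68 and 9.74 at 6 mg/kg. Urah has 1 probe set, and its p passed with 1 value per gene, where 14217 genes were tested in place of 31042 probe sets (limma adjusted p = 0.0445). Crym passed without 20 mg/kg replicate 1 (-0.99, limma adjusted p = 0.0239), the one 20 mg/kg array whose Crym level, 5.83, lay within the 6 mg/kg range.

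Gene lists were read against all 14217 named genes, of which 3 (0.0211%) were called, 714 (5.02%) were higher and 744 (5.23%) lower at an unadjusted p under 0.05, and whose median difference was -0.01. Their groups did not overlap for 142 genes on the higher side (0.999%) and 198 on the lower side (1.39%). Each gene is represented by 1 probe set. Closely related family members, as among the transferases and cytochromes, may share probe signal.

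Of 20 glutathione S-transferases measured, only Gstp1 passed. At an unadjusted limma p under 0.05, 6 were higher and 1 lower, 17 lay above 0, and the median was 0.12 (0.07 without 6 mg/kg replicate 1). Gstt3, a theta-class enzyme, measured 10.06, 10.11, 9.98, 9.48 and 9.34 at 20 mg/kg, against 9.08, 9.61, 9.29, 9.17 and 9.62 at 6 mg/kg, a difference of 0.44 ± 0.21 (SE; limma adjusted p = 0.451) between overlapping groups. Gsta4, which detoxifies lipid aldehydes, differed by 0.38 ± 0.10 (SE; limma adjusted p = 0.244), with no overlap. The abundant Gstm1 averaged 12.11 ± 0.11 at 20 mg/kg and 11.94 ± 0.26 at 6 mg/kg (SD, n = 5 each), and Gsta3 averaged 8.11 ± 0.57 at 20 mg/kg and 7.71 ± 0.36 at 6 mg/kg (SD, n = 5 each). Neither Gstm1 (limma adjusted p = 0.468) nor Gsta3 (0.735) passed.

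Among 31 NRF2 targets, Gstp1 was again the only call. At an unadjusted limma p under 0.05, 7 were higher and 0 lower, and the median was 0.08 (0.05 without 6 mg/kg replicate 3). Slc7a11, the cystine importer, differed by 0.70 ± 0.28 (SE; limma adjusted p = 0.374) and Pgd, of the pentose phosphate pathway, by 0.40 ± 0.12 (SE; limma adjusted p = 0.282). Nqo1, a quinone reductase and the usual marker gene of this pathway, measured 6.19, 6.49, 6.86, 6.59 and 6.27 at 20 mg/kg, against 6.00, 6.15, 6.25, 6.33 and 6.66 at 6 mg/kg, a difference of 0.20 (limma adjusted p = 0.707). Akr7a3, an aldehyde reductase, differed by -0.25 (limma adjusted p = 0.698). Replicate 5 of 20 mg/kg was low for Akr7a3 (8.0, others 9.02 to 9.26). Without 1 array in turn the Akr7a3 difference ran from -0.43 to -0.02. That low array also enters the step to 60 mg/kg. Nqo1 and Akr7a3 both passed on the next step, to 60 mg/kg, by 1.03 for Nqo1 (limma adjusted p = 0.0247) and 1.57 for Akr7a3 (limma adjusted p = 0.0018). The difference between their own 2 steps did not pass in limma, with adjusted p = 0.378 for Nqo1 and 0.242 for Akr7a3.

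Of 19 cholesterol synthesis genes measured, 0 were called in limma. At an unadjusted p under 0.05, 4 were higher and 0 lower. All 19 differences lay above 0, between 0.07 and 0.89, and the median was 0.23. Over the alternatives the median ran between 0.15, without 6 mg/kg replicate 4, and 0.32. Against vehicle the median was -0.10 at 6 mg/kg and 0.13 at 20 mg/kg. On the same dose step with p-toluidine it was 0.15. Insig1, a sterol sensor of the endoplasmic reticulum, measured 8.99, 9.42, 9.58, 9.37 and 9.85 at 20 mg/kg, against 9.47, 8.02, 9.50, 8.17 and 7.62 at 6 mg/kg, a difference of 0.89 ± 0.29 (SE; limma adjusted p = 0.308). Replicates 1 and 3 of 6 mg/kg were as high as the 20 mg/kg arrays, and replicates 2, 4 and 5 were lower. Those 2 arrays were the lowest of their dose for Gstp1. They also had the smallest interquartile ranges of their dose over all probe sets, 3.22 and 3.12 against 3.26 to 3.30. The part of array spread in this split was not tested. Sqle, squalene epoxidase, had the same 2 arrays high at 6 mg/kg: it measured 6.16, 6.49, 6.80, 6.49 and 6.55 at 20 mg/kg, against 6.81, 5.71, 6.40, 5.69 and 5.42 at 6 mg/kg. Cyp51, a sterol demethylase (0.35, limma adjusted p = 0.523), and Idi1, an isoprenoid isomerase (0.34, limma adjusted p = 0.653), showed that split too.

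Fatty acid synthesis genes numbered 23, with 0 called in limma, 6 higher and 0 lower at an unadjusted p under 0.05, 16 above 0 and a median of 0.17. Against vehicle the median of this list was below 0 at both doses, at -0.22 for 6 mg/kg and -0.10 for 20 mg/kg. Pnpla3, a lipase of lipid droplets, measured 3.85, 3.74, 4.40, 4.50 and 5.19 at 20 mg/kg, against 2.51, 3.61, 3.58, 3.69 and 3.00 at 6 mg/kg. Pnpla3 groups did not overlap, and the difference of 1.06 ± 0.32 (SE) had a limma adjusted p of 0.285. A second bright probe set of Pnpla3 differed by 1.28 (limma adjusted p = 0.283), and averaged 3.91 in vehicle, 3.11 at 6 mg/kg and 4.39 at 20 mg/kg. Fads2, the delta-6 desaturase, differed by 0.42 ± 0.11 (SE; limma adjusted p = 0.231) with no overlap, and Acly, which makes cytosolic acetyl-CoA, by 0.45 ± 0.18 (SE; limma adjusted p = 0.396). Elovl2, an elongase of polyunsaturated fatty acids, is given above. Scd, which makes monounsaturated fatty acids, lay on the other side at -0.41 ± 0.56 (SE; limma adjusted p = 0.817).

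Of 29 ATF4 and integrated stress response genes, which cells switch on when translation is restrained, 0 were called in limma. At an unadjusted p under 0.05, 7 were higher and 0 lower, and the median was 0.13. Atf3, a stress-induced transcription factor, measured 2.99, 6.74, 3.53, 5.81 and 4.63 at 20 mg/kg, against 3.71, 3.28, 3.52, 3.25 and 2.49 at 6 mg/kg. Ddit4, an inhibitor of mTORC1, measured 5.43, 7.97, 6.97, 7.14 and 7.38 at 20 mg/kg, against 5.78, 5.71, 6.08, 5.19 and 6.00 at 6 mg/kg. In both genes replicate 1 of 20 mg/kg was at the level of the 6 mg/kg arrays, as was replicate 3 for Atf3, and replicate 2 was the highest. Atf3 differed by 1.49 ± 0.46 (SE; limma adjusted p = 0.294) and Ddit4 by 1.23 ± 0.39 (SE; limma adjusted p = 0.302). Gdf15, a secreted stress signal, differed by 0.98 ± 0.32 (SE; limma adjusted p = 0.309), and Chac1, which degrades glutathione, by 0.75 ± 0.38 (SE; limma adjusted p = 0.492). The list's median was 0.01 without 20 mg/kg replicate 2, 0.07 without 20 mg/kg replicate 4 or 6 mg/kg replicate 3, and 0.34 with replicate 1 of 20 mg/kg left out.

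Rat liver differs strongly between the sexes through the pattern of growth hormone release. In these male livers the medians of male-biased and female-biased genes lay on opposite sides of 0. Of 12 male-biased genes 0 were called in limma, 2 lay above 0 and the median was -0.11. Of 12 female-biased genes 0 were called in limma, 11 lay above 0 and the median was 0.22. Against vehicle the female-biased median was -0.26 at 6 mg/kg and 0.08 at 20 mg/kg, so the 20 mg/kg group was the nearer to vehicle. The male-biased median against vehicle was -0.03 at 6 mg/kg and -0.09 at 20 mg/kg. At an unadjusted p under 0.05, 1 male-biased gene was higher and 1 lower, and 2 female-biased genes were higher and 0 lower. Several male-biased genes hardly differed, among them Cyp2c13 (-0.03), Cyp3a2 (-0.03), Ust5r (-0.05) and Cyp2a2 (-0.09). Fads1 (0.24) and Cyp3a18 (0.16) were the 2 above 0. The male-biased genes described next are the largest falls of the list. Mup5, a major urinary protein, measured 6.98, 3.37, 3.29, 3.18 and 3.14 at 20 mg/kg, against 7.74, 6.05, 6.45, 3.50 and 4.90 at 6 mg/kg. Replicates 2 to 5 of 20 mg/kg were below all 6 mg/kg arrays, and replicate 1 was above all of them but replicate 1. The difference was -1.73 ± 0.76 (SE; limma adjusted p = 0.425), and -2.48 without that array, which also did not pass. Mup5 belongs to a family of near-identical genes, and its 2 dimmer probe sets differed by -0.11 and -0.23.

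The same array stood apart for Obp3, another urinary lipocalin, which measured 6.59, 2.46, 2.24, 2.22 and 2.29 at 20 mg/kg, against 6.65, 4.51, 4.91, 2.63 and 3.32 at 6 mg/kg (-1.24 ± 0.92, SE; limma adjusted p = 0.642). Cyp2c11, the main male-specific cytochrome P450, measured 12.11, 10.21, 9.93, 10.75 and 10.33 at 20 mg/kg, against 11.66, 11.56, 11.79, 10.76 and 11.00 at 6 mg/kg (-0.69 ± 0.39, SE; limma adjusted p = 0.536). Sult1e1, the estrogen sulfotransferase, differed by -0.69 ± 0.55 (SE; limma adjusted p = 0.665). On the female-biased side, Trim24, a nuclear receptor cofactor, measured 4.56, 5.91, 6.67, 6.49 and 6.94 at 20 mg/kg, against 5.54, 5.08, 4.78, 5.52 and 4.79 at 6 mg/kg. Replicate 1 was below every 6 mg/kg array and the other four were above all of them (0.97 ± 0.38, SE; limma adjusted p = 0.375). Cyp2c12, the main female-specific P450, averaged 9.50 ± 0.81 at 20 mg/kg and 8.80 ± 0.71 at 6 mg/kg (SD, n = 5 each; limma adjusted p = 0.589). Without 20 mg/kg replicate 1 the female-biased median was 0.56, and without the arrays of narrow spread, its lowest value, 0.17. Leaving out that 20 mg/kg array put the male-biased median at -0.19, and leaving out replicate 3 of that dose put it at -0.03. It was -0.07 with replicate 2 or 5 of 20 mg/kg left out, and -0.06 with replicate 2 of 6 mg/kg left out.

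**Figure D3:**
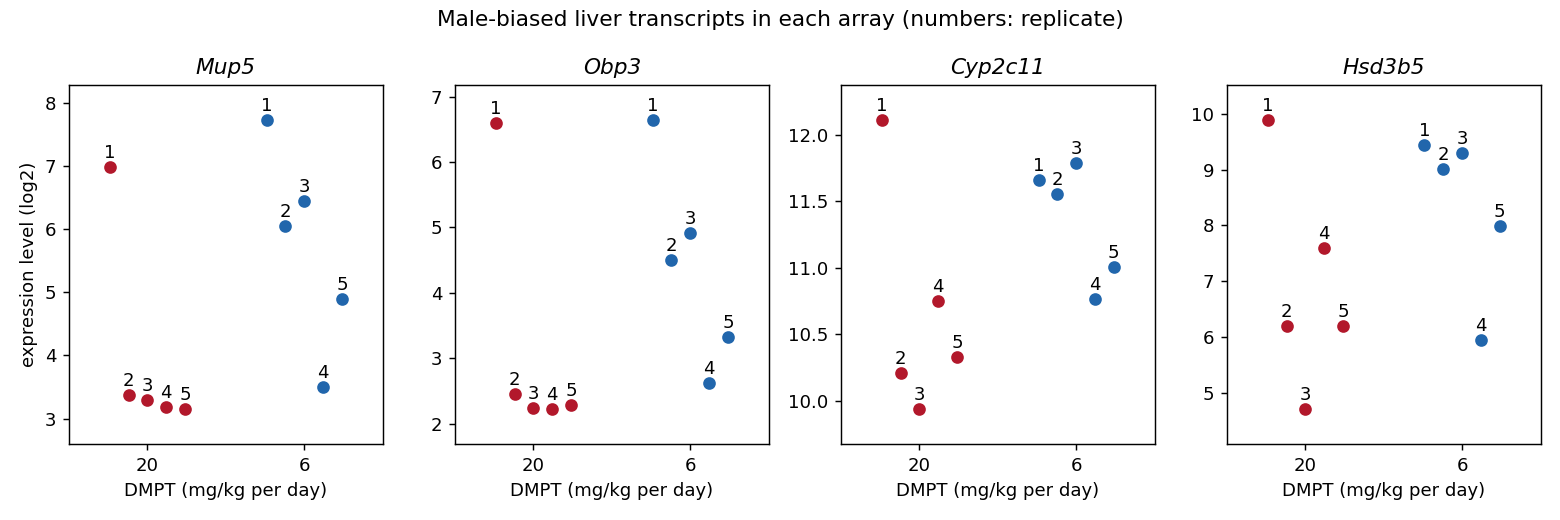
Log2 level of 4 male-biased transcripts in each array at 20 mg/kg (red, left) and 6 mg/kg (blue, right), with the replicate number above each point. Hsd3b5 was chosen after its values were seen, and the others are among the largest falls of the male-biased list. Replicate 1 of 20 mg/kg lies above at least 4 of the 5 arrays of 6 mg/kg in all 4 panels, and replicate 4 of 6 mg/kg is the lowest of its group.

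Targets of the other xenobiotic receptors differed little. Of 16 CAR and PXR targets, 0 were called in limma, 2 were higher and 2 lower at an unadjusted p under 0.05, and the median was 0.05. Abcb1a, a drug efflux pump, differed by 0.48 ± 0.17 (SE; limma adjusted p = 0.336). Cyp3a9 differed by -0.62 ± 0.27 (SE; limma adjusted p = 0.429). Of 8 AhR targets, 0 were called in limma, 1 was higher and 0 lower at an unadjusted p under 0.05, and the median was 0.05. Cyp1a2, which oxidizes aromatic amines, averaged 10.63 ± 0.17 at 20 mg/kg and 10.86 ± 0.22 at 6 mg/kg (SD, n = 5 each; limma adjusted p = 0.477). Of 19 conjugation enzymes other than glutathione S-transferases, 0 were called in limma, 1 was higher and 2 lower at an unadjusted p under 0.05, and the median was 0.02. Inmt, an amine N-methyltransferase, differed by -0.90 ± 0.31 (SE; limma adjusted p = 0.332), and Sult2a6, a hydroxysteroid sulfotransferase, by 0.63 ± 0.36 (SE; limma adjusted p = 0.535).

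Of 16 markers of preneoplastic liver foci, Gstp1 was the only call, 1 was higher and 1 lower at an unadjusted p under 0.05, and the median was -0.01. H19, an imprinted noncoding RNA of fetal liver, measured 9.02, 10.07, 10.08, 9.89 and 9.38 at 20 mg/kg, against 7.67, 8.54, 8.93, 9.0 and 9.21 at 6 mg/kg. The groups overlapped, and the difference of 1.02 ± 0.53 (SE) had a limma adjusted p of 0.496. Its neighbour in the imprinted locus, Igf2, was dim and differed by -0.24 ± 0.09 (SE; limma adjusted p = 0.355). Of the 14 imprinted and fetal genes, 0 were called, 0 were higher and 1 lower at an unadjusted limma p under 0.05, and the median was -0.02.

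In the remaining pathway lists 0 genes were called in limma, and the medians lay between -0.03 and 0.09. Of 42 cell cycle genes, 1 was higher and 2 lower at an unadjusted p under 0.05, and the median was 0.04. Birc5, of the mitotic passenger complex, differed by 0.43 (limma adjusted p = 0.471) and E2f1, an activator of S phase genes, by -0.40 (limma adjusted p = 0.341). Of 29 PPARA targets, 1 was higher and 2 lower at an unadjusted p under 0.05, and the median was 0.03. Aqp7, a glycerol channel, differed by 0.50 (limma adjusted p = 0.416). Fgf21, a fasting hormone, measured 4.71, 9.43, 7.11, 8.41 and 8.42 at 20 mg/kg, against 7.87, 6.96, 7.61, 6.41 and 6.91 at 6 mg/kg. Fgf21 at 20 mg/kg spanned a wider range that included all 6 mg/kg arrays, and the difference was 0.46 ± 0.56 (SE; limma adjusted p = 0.793).

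Of 19 immediate early genes, 4 were higher and 0 lower at an unadjusted p under 0.05, with a median of 0.09, which was -0.04 with replicate 2 of 20 mg/kg left out and 0.23 with replicate 1 left out; Jun, a subunit of AP-1, differed by 0.68 (limma adjusted p = 0.527), with replicates 2 and 4 of 20 mg/kg highest. Of 13 heat shock genes, 1 was higher and 3 lower at an unadjusted limma p under 0.05, and Hspb1, a small chaperone, differed by -0.45 ± 0.15 (SE; limma adjusted p = 0.314). Of 23 genes of bile acid metabolism, 1 was higher and 1 lower at an unadjusted p under 0.05; Nr0b2, a repressor of bile acid synthesis, differed by 0.72 ± 0.26 (SE; limma adjusted p = 0.347) and Cyp8b1, which makes cholic acid, by 0.27 ± 0.17 (SE; limma adjusted p = 0.592). Of 25 iron and heme genes, 1 was higher and 0 lower at that p; Tfrc, the transferrin receptor, differed by 0.25 (limma adjusted p = 0.655) and Hmox1, heme oxygenase, by 0.24 (limma adjusted p = 0.477). Of 23 glucocorticoid-responsive and fasting genes, 1 was higher and 1 lower at that p, and Mt2A, a metallothionein, differed by -0.77 ± 0.60 (SE; limma adjusted p = 0.659). At an unadjusted limma p under 0.05, the counts were 2 higher and 1 lower of 23 unfolded protein response genes, 2 and 1 of 20 p53 and DNA damage genes, 2 and 1 of 17 circadian clock genes, and 2 and 1 of 32 proteasome genes. They were 3 higher and 1 lower of 30 amino acid and urea cycle enzymes, 1 and 1 of 28 acute phase genes, and 0 and 2 of 20 genes of gluconeogenesis and glycolysis.

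**Figure D4:**
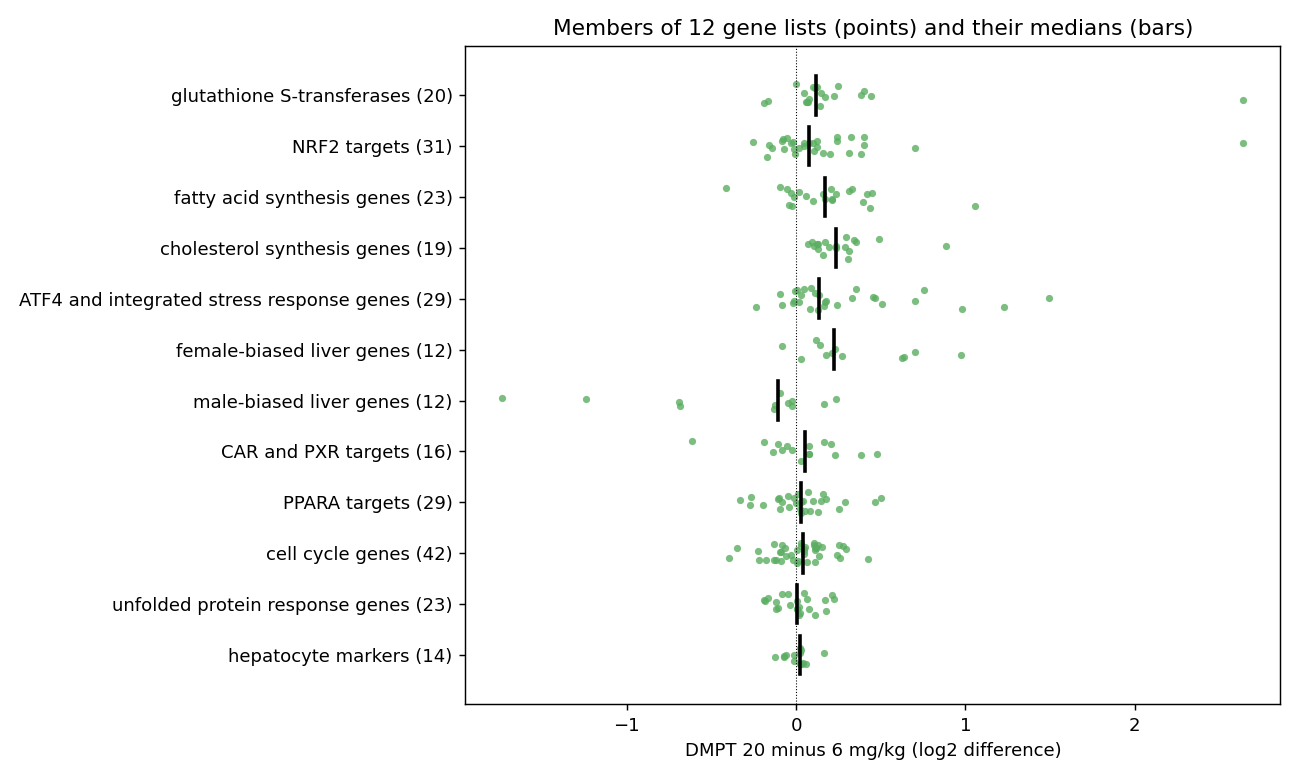
Log2 difference of DMPT 20 minus 6 mg/kg for each measured member (points) of 12 gene lists, with the list median as a bar and the number of members in parentheses. Gstp1 is the point at 2.64 in 2 of the lists; all 19 cholesterol synthesis genes lie right of 0.

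Cell type markers moved little. The 14 hepatocyte markers had 0 calls in limma and a median of 0.02, and their summed linear level ran from 86355 to 89850 at 20 mg/kg and from 86244 to 90639 at 6 mg/kg, the highest of the cell type lists. The 13 cholangiocyte markers, Epcam among them, had 0 calls in limma and a median of -0.01. At an unadjusted p under 0.05, Epcam was the 1 higher and Krt7 the 1 lower. Their summed linear level, Epcam included, ran from 341 to 381 at 20 mg/kg and from 288 to 332 at 6 mg/kg. Of the 13 cholangiocyte markers, 6 differences lay above 0, Epcam among them, and 7 below. The keratins were among those below, Krt7 at -0.20 and Krt19 at -0.01. Beside Fgf7, the 20 stellate cell and fibroblast markers had 0 calls, 0 higher and 0 lower at an unadjusted limma p under 0.05 and a median of -0.05, and their summed linear level ran from 1761 to 1935 at 20 mg/kg and from 1699 to 2156 at 6 mg/kg. Of 14 periportal hepatocyte markers, 2 were higher and 0 lower at an unadjusted limma p under 0.05. Aldh1b1, a mitochondrial aldehyde dehydrogenase, measured 6.67, 6.56, 6.79, 7.04 and 7.06 at 20 mg/kg, against 5.36, 5.87, 5.80, 6.05 and 6.14 at 6 mg/kg (0.98 ± 0.25, SE; limma adjusted p = 0.231). Aldh1b1 in vehicle averaged 6.92, so the low group was 6 mg/kg. The other cell type lists had 0 calls in limma and medians between -0.07 and 0.04. At an unadjusted p under 0.05, 0 were higher and 2 lower of 15 pericentral hepatocyte markers, 0 and 3 of 17 lymphocyte markers, 0 and 1 of 14 erythroid markers, 1 and 0 of 15 pancreatic acinar markers, and 0 in either direction among 13 macrophage, 15 sinusoidal endothelium and 11 neutrophil markers. The part of cell composition in these results was not tested.

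Of the genes named for large differences from vehicle at 6 or 20 mg/kg, Gstp1 alone passed on the step between these doses. Against vehicle, 810 probe sets were called at 20 mg/kg (2.61%) and 52 at 6 mg/kg (0.168%); both comparisons use the same vehicle arrays. Abcc3, an export pump for conjugates, was 1.64 above vehicle at 20 mg/kg (limma adjusted p = 0.000878) and 1.56 above it at 6 mg/kg (limma adjusted p = 0.00917). Abcc3 on the step itself differed by 0.08 (95% interval -0.49 to 0.64). Tnfrsf9, a costimulatory receptor, was -0.68 against vehicle at 20 mg/kg (limma adjusted p = 0.00133) and -0.78 at 6 mg/kg (limma adjusted p = 0.00182), and differed on the step by 0.10 (-0.14 to 0.35). Thrsp, a lipogenic regulator, was -0.76 against vehicle at 20 mg/kg (limma adjusted p = 0.015) and -1.15 at 6 mg/kg (limma adjusted p = 0.00182), with 0.39 on the step (limma adjusted p = 0.437). Serpinb9b, a granzyme inhibitor, measured 4.54, 5.95, 5.67, 5.93 and 6.72 at 20 mg/kg, against 7.79, 7.16, 6.52, 7.27 and 6.38 at 6 mg/kg, and its step of -1.26 ± 0.37 (SE) had a limma adjusted p of 0.279. Trim36, a ubiquitin ligase, differed by -0.22 (limma adjusted p = 0.825).

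The same dose step with p-toluidine had 1 call of 31042 probe sets (0.00322%), and it was Gstp1. Under p-toluidine, Gstp1 measured 8.16, 9.19, 8.75, 6.52 and 7.15 at 20 mg/kg, against 5.70, 4.98, 6.39, 5.80 and 5.69 at 6 mg/kg. Its step was 2.24 ± 0.32 (SE), 4.71-fold, with a limma adjusted p of 0.00205. Here too the spread was unequal. The SD of Gstp1 was 1.11 at 20 mg/kg and 0.50 at 6 mg/kg of p-toluidine, but 0.19 to 0.42 in its other groups. All p-toluidine groups enter that SE, and this step was not refitted with its own arrays alone. The DMPT step exceeded the p-toluidine step by 0.41 ± 0.49 (SE; 95% interval -0.58 to 1.39; limma adjusted p = 0.954), so the sizes of the Gstp1 steps were not told apart, with an interval that includes 0. That interval pools the spread of all groups and is narrower than the SDs of the compared groups would give. Levels themselves cannot be compared between the chemicals, whose arrays appear to have been normalized separately, with array medians of 3.54 to 3.62 for DMPT and 2.73 to 2.81 for p-toluidine.

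Over all probe sets the test of the DMPT step minus the p-toluidine step called 0 in limma, with 1838 (5.92%) at an unadjusted p under 0.05. The interaction was furthest from 0 relative to its error for Ten1, which differed by -0.61 under DMPT and 0.30 under p-toluidine (-0.91 ± 0.19, SE; limma adjusted p = 0.498). Ten1 was singled out after its values were seen. The other DMPT calls were near 0 under p-toluidine: Galnt11 differed there by 0.13, Fgf7 by 0.01, 1370195_at by 0.10 and 1393189_at by -0.01. Their interactions did not pass in limma, with adjusted p = 0.836 for Galnt11, 0.697 for Fgf7, 0.771 for 1370195_at and 0.665 for 1393189_at. Rcan2 and Erg28 differed under p-toluidine by 0.42 and 0.33.

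**Figure D5:**
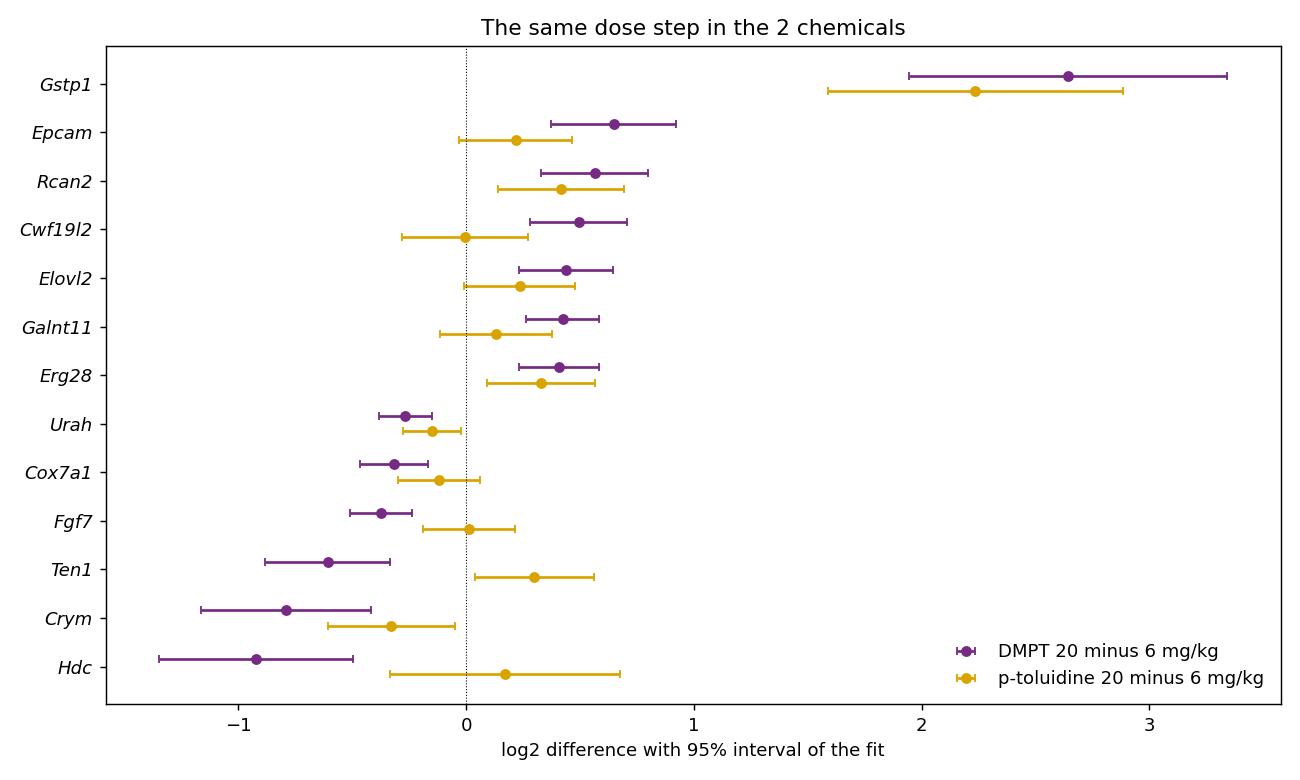
Log2 difference of 20 minus 6 mg/kg with its 95% interval for the 3 called genes and the 10 next by p, under DMPT (purple, upper) and p-toluidine (yellow, lower). Only for Gstp1 are both steps over 2, at 2.64 and 2.24. The Gstp1 intervals pool the spread of all groups and are narrower than the SDs at 6 and 20 mg/kg would give.

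Set against its neighbours, the step to 20 mg/kg had 5 calls, the step from 1 to 6 mg/kg had 0 with 2563 (8.26%) at an unadjusted p under 0.05, and the step from 20 to 60 mg/kg had 34 (0.11%), all in limma. The test of the 6-to-20 step minus the 20-to-60 step called 0 in limma, with 3368 (10.8%) at an unadjusted p under 0.05. On the step to 60 mg/kg, Galnt11 differed by -0.07, Rcan2 by -0.005, Urah by -0.007 and Ten1 by -0.01.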

How the data were processed

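RNA of 60 liver samples was measured on one-colour Affymetrix 3′ arrays. The deposited values are log2 levels per probe set made by the authors with RMA (background correction, quantile normalization, summarization), named without a version per the submitters' processing notes; the log2 scale was inferred from RMA and from the range of 0.0507 to 13.9. Of 31099 probe sets, 57 controls were left out. Arrays carry no depth; their number limits precision.

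Groups and replicates came from the titles. One mean per group was fitted to the 30 DMPT arrays with limma 3.58.1 (lmFit, contrast, eBayes; R 4.3.3), and p-values were adjusted by Benjamini-Hochberg over 31042 probe sets and called at 0.05, with no filter on brightness. The comparison of the steps of the 2 chemicals used all 60 arrays, with each step taken within its chemical. The code was tested on simulated data.

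The members and gene lists were chosen with earlier results of these data known. Named genes were all calls, the 5 next by p per direction, up to 4 members with the largest difference per list, and genes with large differences from vehicle in that earlier work. Symbols came from the platform annotation, updated by gene ID to RefSeq GRCr8 (20826 probe sets with 1 symbol, 436 with several, 9780 with none); the brightest probe set represents a gene. The labels state no pairing by replicate number, and same-numbered arrays correlated at -0.08 to 0.11 after removal of group means. With 5 arrays per dose this cannot exclude a small shared effect. Array correlations ran from 0.991 to 0.996 and 0 arrays were identical. Alternatives were normalization, brightness filter, variance prior, replicate block, array weights, fewer arrays, a 1.5-fold minimum and averaged probe sets.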

Additional observations from a re-analysis of the deposited data

Results flagged for a closer look

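A single array far from the 4 others of its dose was looked for in 134 groups of 5 values and found in 11; chance gives about 1 in 20. At 20 mg/kg, replicate 1 was high for Mup5 (6.98, others 3.14 to 3.37), Obp3 (6.59, others 2.22 to 2.46) and Cyp3a9 (3.03, others 2.23 to 2.43). At the same dose, Akr7a3 was low in replicate 5 (8.0, others 9.02 to 9.26) and Galnt11 was high in replicate 3 (7.64, others 7.33 to 7.41).

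At 6 mg/kg, replicate 4 was low for Sult1e1 (9.38, others 11.31 to 11.80) and high for Sult2a6 (10.61, others 9.46 to 9.56). Replicate 1 was low for Galnt11 (6.71, others 7.02 to 7.11) and E2f1 (3.57, others 4.21 to 4.30). Replicate 5 was low for Rcan2 (5.52, others 5.80 to 5.90) and for the beta-actin RNA gauge (1.18, others 1.41 to 1.49).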

How the results depend on the processing

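The count of probe sets called on the DMPT step, 5, was 3 after quantile normalization, 3 with a trended robust variance prior, 2 with the replicate block, 1 without the arrays of narrow spread and 2 with a minimum of 1.5-fold; without 1 replicate in turn it ran from 1 to 5. It was 5 with only probe sets above the median, 6 with array weights and 4 in the fit of the 10 arrays, of which 1 was shared with the 5. The interaction and the comparison of steps had 0 calls in every alternative, replicate block included. Of 65 named genes and probe sets, 54 kept their call and sign in all alternatives, 5 lost the call somewhere and 5 gained one somewhere. Abcc3, at 0.08, ran from -0.0235, a change of sign without 20 mg/kg replicate 3, to 0.159 without 20 mg/kg replicate 1. The Gapdh gauge difference of -0.06 ran from -0.0767 to -0.0469 without 1 replicate in turn and passed, unadjusted, at -0.0767 without 6 mg/kg replicate 5 (exact p = 0.0397). The labels state no pairing by replicate number. Of the 20 mg/kg arrays, only replicate 4 correlated best with the 6 mg/kg array of its own number (0.110, others at most 0.062). The causes of these shifts were not tested. With 5 arrays per dose, the median half-width of the 95% interval was 0.19 on the log2 scale. That interval is not adjusted for the number of probe sets, so a call needed a larger difference for most of them. The smallest difference called was 0.38, and differences of 0.57 for Rcan2 and 0.65 for Epcam did not pass.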

Other observations

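Among the 9 probe sets at least 2-fold lower at 20 mg/kg, several belong to transcripts of male rat liver or to the urinary protein family; they were chosen after their values were seen, and none passed in limma. Hsd3b5, a male-specific steroid reductase of rat liver, measured 9.90, 6.19, 4.70, 7.59 and 6.19 at 20 mg/kg, against 9.44, 9.02, 9.30, 5.94 and 8.0 at 6 mg/kg (-1.43 ± 0.81, SE; limma adjusted p = 0.534). Without 20 mg/kg replicate 1, Hsd3b5 differed by -2.17 (limma adjusted p = 0.341). Rup2, a urinary protein, differed by -1.49 ± 0.64 (SE; limma adjusted p = 0.416), and there the low 20 mg/kg array was replicate 3, at 3.30.

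Dhrs7l1, a short-chain dehydrogenase, measured 8.74, 3.67, 3.42, 5.37 and 3.32 at 20 mg/kg, against 6.04, 5.84, 7.18, 4.08 and 6.56 at 6 mg/kg (-1.04 ± 0.85, SE; limma adjusted p = 0.674). Akr1b7, an aldose reductase relative, ran the other way in the same array: it measured 1.29, 3.97, 4.84, 3.98 and 6.12 at 20 mg/kg, against 4.55, 1.98, 1.96, 4.24 and 2.20 at 6 mg/kg (1.06 ± 0.79, SE; limma adjusted p = 0.646). Onecut1, a liver transcription factor, measured 4.47, 7.74, 5.65, 7.38 and 8.45 at 20 mg/kg, against 7.52, 5.37, 7.25, 4.28 and 3.95 at 6 mg/kg (1.06 ± 0.71, SE; limma adjusted p = 0.606). For Onecut1 the 2 highest arrays at 6 mg/kg, replicates 1 and 3, were also the lowest of that dose for Gstp1, which measured 6.09 and 6.61 there. Akr1b7 and Onecut1 were likewise chosen after their values were seen, so their match to these array patterns is not separate evidence.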
